A study of Homo sapiens with 6 samples.

Results

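The transcripts described here are those of YAP and TAZ, the coactivators at the end of the Hippo pathway, and of the TEAD and VGLL proteins they work with or against. The 9 genes were chosen by symbol (*YAP1*, *WWTR1*, *TEAD1* to *TEAD4*, *VGLL1*, *VGLL3* and *VGLL4*), and all 9 are among the 58735 genes of the deposited table. TAZ is encoded by *WWTR1*, and the symbol *TAZ* of the table belongs to tafazzin, a mitochondrial protein. RNA was sequenced from H2452, an established line of human pleural mesothelioma, in 3 libraries of cells carrying a scrambled guide (sgCtrl, labelled wild type) and 3 of cells carrying the *NF2* guide sg*NF2*-1 (labelled *NF2* knockout). Both groups carried a lentiviral vector with Cas9 and mCherry driven by the SFFV promoter and were grown in the same medium. The methods describe sorting of mCherry-positive cells and no isolation of clones, and a single *NF2* guide was sequenced. The labels do not say whether replicates were separate cultures, so p-values measure the spread between these libraries, which may be technical.

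In the Hippo pathway, merlin, the product of *NF2*, promotes the activity of the MST and LATS kinases. LATS kinases phosphorylate YAP and TAZ, which are then held in the cytoplasm by 14-3-3 proteins or degraded. Unphosphorylated YAP and TAZ enter the nucleus, where they have no DNA-binding domain of their own and act mostly through TEAD1 to TEAD4, factors that recognise the sequence GGAATG. VGLL proteins also bind TEADs, and VGLL4 competes with YAP and TAZ for them. *NF2* is among the genes most often lost in mesothelioma.

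The guide of the sg*NF2*-1 cells is shown because it defines the comparison. Its 20-base site is on the plus strand at chr22:29604091-29604110 (GRCh38), in exonic sequence of 11 annotated *NF2* transcripts (GENCODE 29), and 0 other genes had a transcript that holds it.
sgNF2-1: cgagatggagttcaattgcg
*YAP1* and *WWTR1* are paralogues of which *WWTR1* was called lower and *YAP1* was not called, so the 300 bases around their annotated starts are printed from RefSeq (GRCh38.p14), with each GGAATG, on either strand, in capitals. The *YAP1* window (chr11:102110197-102110496, plus strand) holds 1 copy, which starts at base 89 of the window. The *WWTR1* windows (chr3:149657976-149658275 and chr3:149703224-149703523, minus strand) hold none.
YAP1: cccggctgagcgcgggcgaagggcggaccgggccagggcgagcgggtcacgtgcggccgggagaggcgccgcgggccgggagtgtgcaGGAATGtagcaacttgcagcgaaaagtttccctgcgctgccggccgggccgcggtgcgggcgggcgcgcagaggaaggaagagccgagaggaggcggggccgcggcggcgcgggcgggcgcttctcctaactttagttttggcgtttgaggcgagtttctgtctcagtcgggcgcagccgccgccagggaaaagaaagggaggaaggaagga
WWTR1, start nearer the end of the gene: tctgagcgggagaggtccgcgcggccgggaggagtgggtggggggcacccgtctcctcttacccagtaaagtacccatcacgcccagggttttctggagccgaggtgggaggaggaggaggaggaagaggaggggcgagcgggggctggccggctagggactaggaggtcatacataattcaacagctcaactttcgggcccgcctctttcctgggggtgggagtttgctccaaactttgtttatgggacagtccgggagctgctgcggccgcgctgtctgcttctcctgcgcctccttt
WWTR1, start farther upstream: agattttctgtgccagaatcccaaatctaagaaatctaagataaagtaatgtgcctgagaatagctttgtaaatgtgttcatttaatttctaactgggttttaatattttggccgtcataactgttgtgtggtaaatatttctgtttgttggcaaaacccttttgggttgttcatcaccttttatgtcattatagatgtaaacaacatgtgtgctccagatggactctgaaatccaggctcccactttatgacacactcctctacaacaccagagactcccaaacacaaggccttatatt
RefSeq windows were found for 7 of the 9 genes, 13 windows in all. GGAATG was present in 2 of them (*YAP1* and *VGLL1*), against 4928 of 35116 windows genome-wide, and the AP-1 sequence TGANTCA, searched on both strands, was present in 0, against 7.71% of all windows. These are matches of letters, and binding was not measured in these libraries.

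Total counts ranged from 14782423 to 17416463 per library. Within a group, pairs of libraries differed by 5.12 to 12.5 chi-square units per degree of freedom, which is more than counting noise, and pairs from different groups differed by 40 to 52.6. *NF2* (ENSG00000186575), the targeted gene, had read counts of 1162, 1197 and 1025 under sgCtrl against 692, 802 and 590 under sg*NF2*-1, with no overlap. It averaged 71.4 ± 3.36 CPM (SD, n = 3) under sgCtrl against 44.2 ± 6.77 CPM (n = 3) under sg*NF2*-1. CPM are counts scaled to a common library size after TMM normalization. *NF2* fell by 0.69 on the log2 scale (SE 0.10; quasi-likelihood test of edgeR, adjusted p = 7.9e-06) and kept 62.0% of its sgCtrl level. Of 14 mesothelial and mesothelioma markers, 11 passed the filter on low counts, and the list summed to 792.9 to 886.1 FPKM in sgCtrl and 757.5 to 915.0 FPKM in sg*NF2*-1. *KRT8*, a keratin of simple epithelia, had the highest level under sgCtrl, 270.1 ± 18.4 FPKM against 236.1 ± 31.9 FPKM under sg*NF2*-1 (SD, n = 3 each). Under sg*NF2*-1 the keratin *KRT18* was the highest, at 281.9 ± 25.7 FPKM. The sum was led by keratins, with *KRT18* and *KRT19* at 234.6 and 229.8 FPKM in sgCtrl. Of the 11 tested markers 5 were higher and 3 lower (edgeR, adjusted p under 0.05), with mesothelin (*MSLN*) among the higher (log2 fold change 0.66) and *PDPN*, *WT1* and *KRT19* the lower (-1.28, -1.04 and -0.94). *ITLN1* had no count, and *KRT5*, *LRRN4*, *UPK3B*, *WT1* and calretinin (*CALB2*) had group means at or below 2.41 FPKM. Markers of leukocytes, endothelium and epithelium summed to 0.796 to 1.13 FPKM in sgCtrl and 0.346 to 0.542 FPKM in sg*NF2*-1 over 8 genes, with the leukocyte marker *PTPRC* at 0 counts, and their part in the results was not tested.

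Among the 9 genes, 2 transcripts fell and 1 rose after *NF2* targeting. *WWTR1* and *TEAD2* were lower, *TEAD4* was higher, and *YAP1*, *TEAD1*, *TEAD3*, *VGLL3* and *VGLL4* did not pass the threshold. *VGLL1* had no count in any library. A gene was called at a Benjamini-Hochberg adjusted p under 0.05 over the 14179 genes that passed the filter on low counts (edgeR's quasi-likelihood test). Over all these genes 17.7% were called higher and 16.6% lower, 34.3% in all, so 3 calls among 8 tested genes (37.5%) is close to the share of the transcriptome. In bulk RNA, fewer cells with a transcript and less of it per cell cannot be told apart.

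*WWTR1* (ENSG00000018408, chromosome 3 of GRCh38, 149517235 to 149736714), the gene of TAZ, had read counts of 3089, 3129 and 2933 under sgCtrl against 1964, 1706 and 1462 under sg*NF2*-1. Every sg*NF2*-1 library was below every sgCtrl library, and the spread within each group was small. *WWTR1* thus fell from a mean of 193.3 ± 2.68 CPM to one of 108.3 ± 4.88 CPM (n = 3 per group, SD), which is 56.0% of the control level. On the log2 scale the fold change was -0.84 (95% interval -1.0 to -0.67, standard error 0.08, adjusted p = 1.1e-08, edgeR), lower than that of all but 5.68% of tested genes. It ranged from -0.862 to -0.795 over 12 alternative analyses. The 3 annotated genes that overlap *WWTR1* had at most 8.5 counts on average. Of its 8413 exonic bases, 795 are shared with *WWTR1-AS1*, on the other strand. Whether counting used strand is not given, so how reads of the shared bases entered the *WWTR1* count cannot be told.

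*YAP1* (ENSG00000137693, chromosome 11, 102110461 to 102233423) had read counts of 2029, 2123 and 1918 under sgCtrl against 2301, 1867 and 1661 under sg*NF2*-1. As CPM the sgCtrl libraries were at 128.7, 129.3 and 126.4 and the sg*NF2*-1 libraries at 130.8, 121 and 116.6, so the groups overlapped. The log2 fold change was -0.06 (95% interval -0.23 to 0.10, adjusted p = 0.60, edgeR), an interval that does not reach the change of *WWTR1*. The two-sided exact permutation test of mean CPM gave p = 0.40, where the smallest p that 3 libraries against 3 allow is 0.10. Counts measure the transcript, and phosphorylation and nuclear location of YAP were not measured in these libraries.

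The gene that the table calls *TAZ* (ENSG00000102125, X chromosome, 154411518 to 154421726) averaged 46.8 ± 5.91 CPM (SD, n = 3) under sgCtrl against 52.3 ± 3.87 CPM (n = 3) under sg*NF2*-1. Its groups overlapped, with a difference of 0.16 on the log2 scale (SE 0.10; edgeR, adjusted p = 0.23). A search of the table by the protein name TAZ thus returns tafazzin, at a level that did not pass the threshold, in place of *WWTR1*.

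**Figure D1:**
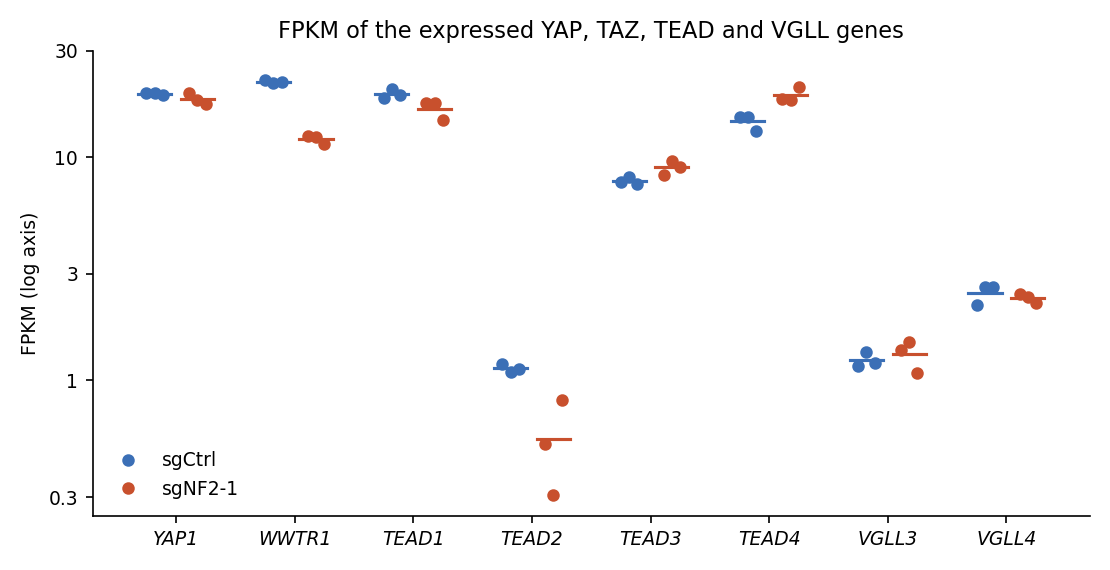
FPKM (log axis) of the 8 expressed genes in each library, with sgCtrl in blue and sgNF2-1 in red, and a bar at the mean of 3 libraries. The red points of WWTR1 lie between 11.4 and 12.4 FPKM, below all blue points at 21.5 to 22.1 FPKM, while the points of YAP1 overlap.

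Of the 4 TEADs, the DNA-binding partners, 1 rose, 1 fell and 2 did not pass the threshold. *TEAD4* (ENSG00000197905, chromosome 12, 2959330 to 3040673) had read counts of 571, 596 and 478 under sgCtrl against 779, 669 and 711 under sg*NF2*-1. All 3 sg*NF2*-1 libraries were above the sgCtrl libraries. *TEAD4* rose from a mean of 34.7 ± 2.75 CPM to one of 45.9 ± 3.56 CPM (n = 3 per group, SD), which is 132.2% of the control level and a log2 fold change of 0.40 (95% interval 0.19 to 0.61, adjusted p = 0.0032, edgeR). This is under the fold limit of 0.5 in the study's call rule (p under 0.05 and log2 fold change beyond 0.5), by which 9.22% of tested genes were higher and 10.8% lower and none of the 9 genes was higher (at an unadjusted p under 0.05 with no fold limit 1 was higher, and DESeq2 also gave 0 by the study's rule).

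*TEAD2* (ENSG00000074219, chromosome 19, 49340595 to 49362457) was the least abundant TEAD, with read counts of 59, 56 and 54 under sgCtrl against 29, 15 and 37 under sg*NF2*-1. The groups did not overlap, but the sg*NF2*-1 libraries were spread, with a coefficient of variation of 47% against 4.65% in sgCtrl. Mean *TEAD2* fell from 3.57 ± 0.166 to 1.74 ± 0.817 CPM (n = 3 per group, SD), which is a log2 fold change of -1.05 (95% interval -1.67 to -0.42, adjusted p = 0.0088, edgeR). Without sg*NF2*-1 replicate 2, the lowest library, the log2 fold change was -0.76 and the call was lost (adjusted p = 0.063, edgeR), which leaves *WWTR1* as the only gene of the 9 called lower. Of its 2980 exonic bases, 319 are shared with *CD37*, which lies on the other strand and had 2.17 counts on average.

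*TEAD1* (ENSG00000187079, chromosome 11, 12674591 to 12944483), the TEAD with the most reads, had read counts of 3136, 3612 and 3123 under sgCtrl against 3358, 2936 and 2292 under sg*NF2*-1. On the CPM scale, the sgCtrl libraries were at 199, 220.1 and 205.8 and the sg*NF2*-1 libraries at 190.8, 190.2 and 160.9, with no overlap. The log2 fold change was -0.20 (95% interval -0.38 to -0.03, adjusted p = 0.064, edgeR). It passed the threshold with library totals in place of TMM scaling (log2 fold change -0.23, adjusted p = 0.045, edgeR), so *TEAD1* lies at the border of the call.

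*TEAD3* (ENSG00000007866, chromosome 6, 35473597 to 35497076) had read counts of 392, 428 and 370 under sgCtrl against 478, 480 and 420 under sg*NF2*-1. As CPM the groups did not overlap (24.4 to 26.1 against 27.2 to 31.1), while the log2 fold change of 0.22 did not pass the threshold (95% interval -0.002 to 0.44, adjusted p = 0.12, edgeR). Groups did not overlap for 5 of the 8 tested genes (62.5%), *WWTR1* and the 4 TEADs, whereas the CPM of 45.3% of all tested genes did not overlap.

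**Figure D2:**
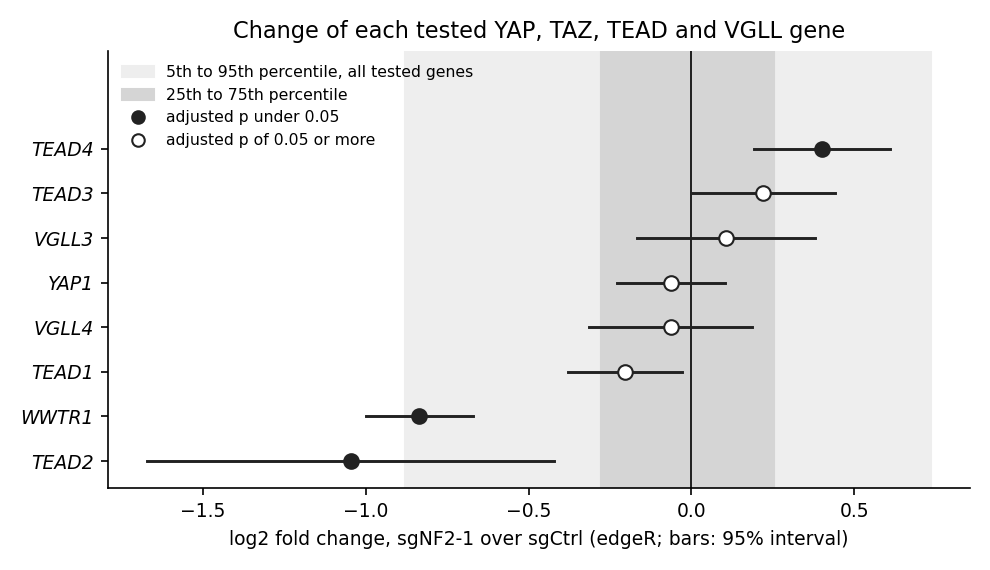
Log2 fold change of each tested gene (sgNF2-1 over sgCtrl, edgeR) with its 95% interval, over bands that show where the log2 fold changes of all 14179 tested genes lie. WWTR1 at -0.84 is inside the 5th to 95th percentile band, which runs from -0.88 to 0.73, and TEAD2 at -1.05 is outside it.

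The VGLL proteins bind TEADs through a short Tondu motif. *VGLL4* (ENSG00000144560, chromosome 3, 11556070 to 11771350), the competitor of YAP and TAZ, had read counts of 262, 328 and 304 under sgCtrl against 331, 280 and 245 under sg*NF2*-1. Its groups overlapped, and the log2 fold change was -0.06 (95% interval -0.31 to 0.19, adjusted p = 0.73, edgeR). *VGLL4* shares 1596 of its 7236 exonic bases with *ATG7*, an autophagy gene on the other strand with a mean of 1370 counts. Whether the authors counted by strand is not given in the sources used here. How reads of the shared bases entered the *VGLL4* count thus cannot be told. *ATG7* itself had a log2 fold change of 0.06 (adjusted p = 0.64, edgeR).

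*VGLL3* (ENSG00000206538, chromosome 3, 86876388 to 86991119) had read counts of 245, 294 and 244 under sgCtrl against 326, 311 and 208 under sg*NF2*-1. Its sg*NF2*-1 libraries lay on both sides of the sgCtrl libraries, and the log2 fold change was 0.11 (95% interval -0.17 to 0.38, adjusted p = 0.57, edgeR). *VGLL1* (ENSG00000102243, X chromosome, 136532152 to 136556807) had 0 counts in all 6 libraries. A count of 0 allows up to 3 counts, or 0.17 to 0.211 CPM in these libraries, for counting error only.

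Levels of different genes were compared as FPKM, which divides the count by the gene length and a depth per library. In sgCtrl the order was *WWTR1* (21.8 ± 0.286 FPKM), *YAP1* (19.3 ± 0.263), *TEAD1* (19.2 ± 1.01), *TEAD4* (14.5 ± 1.17), *TEAD3* (7.81 ± 0.283), *VGLL4* (2.47 ± 0.256), *VGLL3* (1.23 ± 0.0941) and *TEAD2* (1.14 ± 0.0521; FPKM, SD, n = 3 each). In this order *YAP1* and *TEAD1*, and *VGLL3* and *TEAD2*, overlapped, and the other neighbours did not. In sg*NF2*-1 the order was *TEAD4* (18.9 ± 1.44 FPKM), *YAP1* (18.3 ± 1.08), *TEAD1* (16.5 ± 1.59), *WWTR1* (12.1 ± 0.562), *TEAD3* (9.02 ± 0.627), *VGLL4* (2.34 ± 0.106), *VGLL3* (1.31 ± 0.213) and *TEAD2* (0.548 ± 0.256; FPKM, SD, n = 3 each). There *TEAD4*, *YAP1* and *TEAD1* overlapped with the neighbour next to them. *WWTR1* thus went from the highest of the 9 genes to below *TEAD1*. *WWTR1*, *YAP1* and *TEAD1* stood at percentiles 85.9, 83.9 and 83.9 of the tested genes by sgCtrl FPKM, whereas *VGLL3* and *TEAD2* stood at 26.7 and 25.4.

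The balance of the coactivators was read within each library, where scaling between libraries plays no part. The ratio of *YAP1* to *WWTR1* FPKM was 0.878, 0.907 and 0.874 in sgCtrl and 1.57, 1.46 and 1.52 in sg*NF2*-1. By FPKM *WWTR1* was the more abundant coactivator in every sgCtrl library, with 52.5 to 53.4% of their sum. In every sg*NF2*-1 library *YAP1* was, leaving *WWTR1* with 39.0 to 40.6%. Which gene is higher depends on the single length used per gene (6296 bases for *YAP1*, 8413 for *WWTR1*). A fixed length cancels when the ratio is compared between groups. The sum of *YAP1* and *WWTR1* was 40.7 to 41.5 FPKM in sgCtrl and 28.8 to 31.9 FPKM in sg*NF2*-1.

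The summed TEAD level was 42.6 ± 1.98 FPKM under sgCtrl against 45.0 ± 0.391 FPKM under sg*NF2*-1 (n = 3 per group, SD), and the groups overlapped. Its makeup differed. *TEAD4* was 32.2 to 35.7% of the sum in sgCtrl and 39.7 to 45.6% in sg*NF2*-1, while *TEAD1* was 43.3 to 46.5% in sgCtrl and 32.5 to 39.1% in sg*NF2*-1. In sgCtrl *TEAD1* was the leading TEAD by FPKM in all 3 libraries, and in sg*NF2*-1 *TEAD4* was. The lead of *TEAD4* was small in sg*NF2*-1 replicates 1 (41.0 against 39.1%) and 2 (39.7 against 38.5%). This order depends on gene lengths of 2272 bases for *TEAD4* and 10279 for *TEAD1*, which had more reads in every library. *TEAD3* was 18.2 to 18.6% of the sum in sgCtrl and 18.8 to 21.2% in sg*NF2*-1, and *TEAD2* was at most 2.81% in any library.

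**Figure D3:**
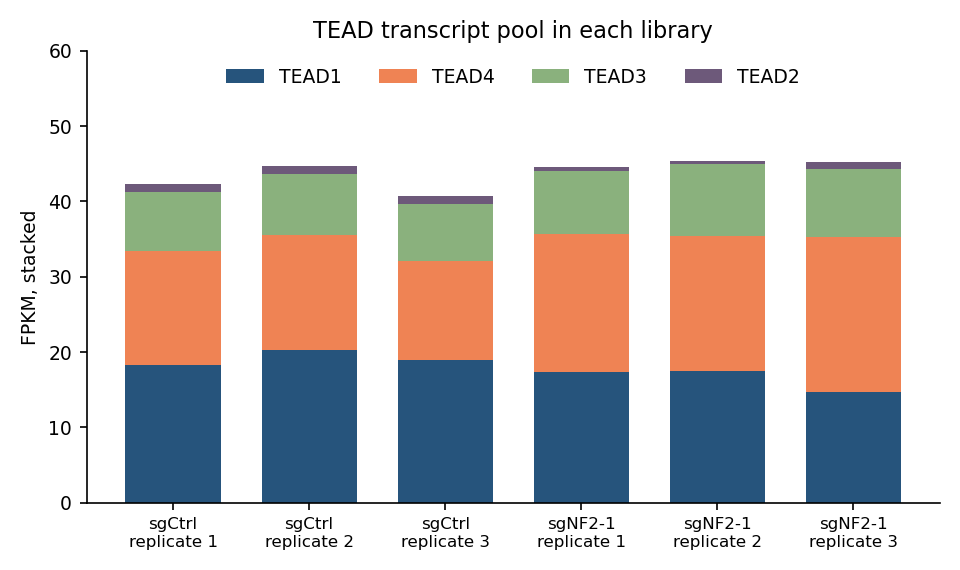
FPKM of TEAD1 to TEAD4 stacked for each library, from 0. The stacks reach 40.8 to 44.7 FPKM in sgCtrl and 44.6 to 45.3 FPKM in sgNF2-1, with a larger TEAD4 segment and a smaller TEAD1 segment in sgNF2-1.

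Per unit of TEAD transcript, the sum of *YAP1* and *WWTR1* was lower in sg*NF2*-1. Of the parts of this sum, *WWTR1* was called lower and *YAP1* was not called. The TEAD sums of the groups overlapped, and *VGLL4* was not called. Gene lengths weight each gene within a sum, so they do not cancel here as they do for *YAP1* to *WWTR1*. The ratio of *YAP1* plus *WWTR1* to the TEAD sum was 0.917 to 0.999 in sgCtrl and 0.638 to 0.716 in sg*NF2*-1, with no overlap. The ratio of *YAP1* plus *WWTR1* to *VGLL4* was 19.0, 15.6 and 15.6 in sgCtrl and 13.1, 12.9 and 12.9 in sg*NF2*-1, also without overlap, and it carries the uncertainty of the *VGLL4* count given above. These are ratios of transcripts, and no test was made on them because the genes were chosen with earlier results known.

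**Figure D4:**
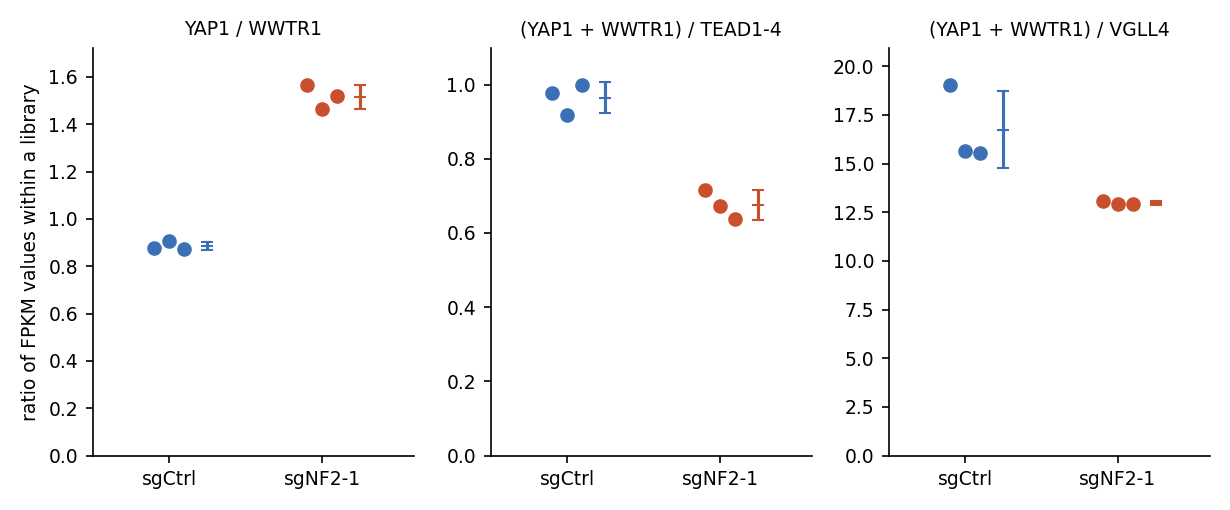
Ratios of FPKM values within each library (points) for sgCtrl in blue and sgNF2-1 in red, with the mean and SD of 3 libraries beside them, on axes from 0. The ratio of YAP1 to WWTR1 is 0.886 ± 0.0179 in sgCtrl and 1.51 ± 0.0516 in sgNF2-1, and the ratios to TEAD1-4 and to VGLL4 are lower in sgNF2-1.

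The other genes of the pathway were described by lists, read against the 34.3% of all tested genes that were called and a median log2 fold change of -0.003 over all of them. Of 21 upstream Hippo components, all tested, 7 were higher and 2 lower (42.9%), with a median log2 fold change of 0.06. *WWC1* (KIBRA, a partner of merlin), *AJUBA* (a LIM protein that binds LATS) and *FRMD6* (a FERM protein) rose by log2 fold changes of 0.90, 0.87 and 0.68. Apart from *NF2* itself, *AMOT*, the gene of angiomotin, was the other member that fell (-1.34), from 2.63 to 1.04 CPM. Of 12 genes for YAP and TAZ retention and turnover (14-3-3 proteins, casein kinases, F-box proteins and NLK), 4 were higher and 0 lower (edgeR; 0 lower at an unadjusted p under 0.05, and 1 at that p with DESeq2), or 33.3%. The highest were *SFN*, a 14-3-3 protein, and the casein kinases *CSNK1E* and *CSNK1D*, with log2 fold changes of 0.50, 0.35 and 0.28.

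Of 19 transcription factors that cooperate with YAP, TAZ or TEADs, 16 were tested, of which 4 were higher and 4 lower, with a median log2 fold change of -0.03. *FOSL1*, an AP-1 subunit, rose from 100.7 to 224.9 CPM (log2 fold change 1.16), *RUNX1* and *JUND* rose by 0.35 and 0.29, and *RUNX2*, *FOS* and *EGR1* fell by 0.94, 0.50 and 0.50 on the log2 scale. Of 11 coactivators and corepressors, 4 were higher and 2 lower (54.5%), among them the corepressors *NCOR1* (0.33) and *CTBP2* (0.28) on the higher side and *NCOA3* (-0.40) and *NCOA2* (-0.37), steroid receptor coactivators, on the lower. Neither *NCOA2* nor *NCOA3* was called without sgCtrl replicate 2 or without sg*NF2*-1 replicate 3, where 0 genes of this list were lower (edgeR; 2 and 3 at an unadjusted p under 0.05). Of all genes named here as called from the pathway lists, *NCOA2* came closest to the threshold (adjusted p = 0.028, edgeR).

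Of 22 target genes of YAP and TAZ, 21 were tested, 9 were higher and 3 lower (57.1%), with a median log2 fold change of 0.18. *F3* (tissue factor), *NUAK2* (a kinase) and *ANKRD1* (a cardiac ankyrin repeat protein) had the largest increases, with log2 fold changes of 1.13, 1.12 and 1.12. *IGFBP3*, an IGF-binding protein, *ARHGEF17* and *CCDC80* fell (-1.41, -0.38 and -0.34). *AMOTL2*, *PTPN14* and *LATS2* are on both this list and the upstream list. The number of lower target genes was 5 with library totals in place of TMM scaling. In the libraries where *WWTR1* was lower and *YAP1* did not pass the threshold, more target genes were called higher (9) than lower (3). Over all tested genes 17.7% were called higher and 16.6% lower. By the study's call rule 7 target genes were higher and 1 lower, whereas 9.22% of all tested genes were higher and 10.8% lower.

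**Figure D5:**
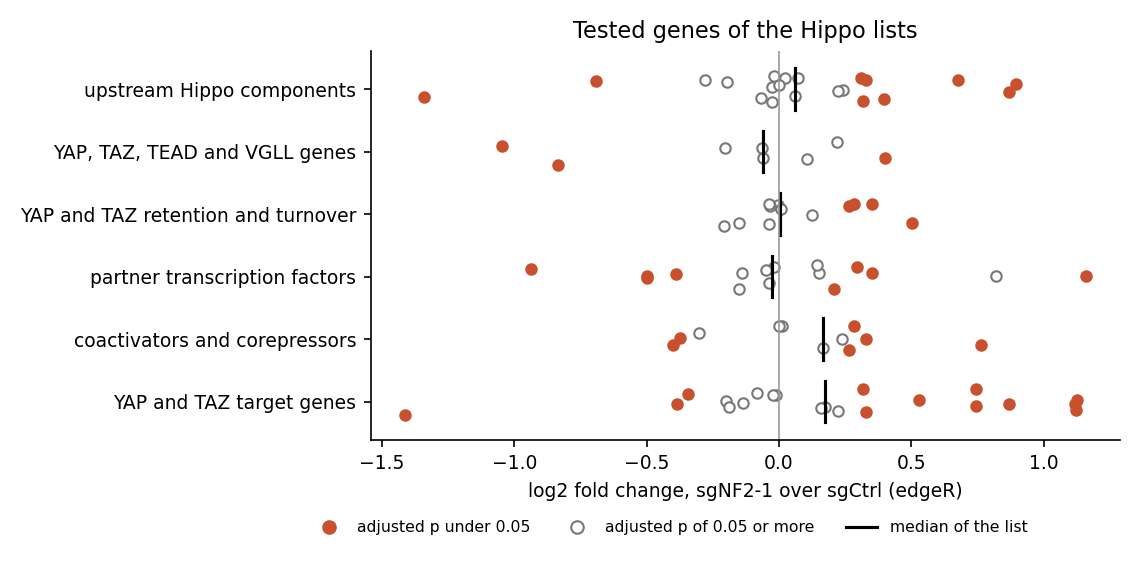
Log2 fold change (sgNF2-1 over sgCtrl, edgeR) of every tested gene in 6 lists, with filled points for an adjusted p under 0.05 and a bar at the median of each list. Filled points lie on both sides of 0 in every list but that of retention and turnover, and the medians run from -0.06 to 0.18.

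For the called genes, the tested genes with the most similar profile were found by the root-mean-square difference of mean-centred log2 CPM over the 6 libraries. For *WWTR1* these were *CPA4*, *HTRA1* and *ASPH*, with differences of 0.026, 0.035 and 0.036 and log2 fold changes of -0.859, -0.825 and -0.835. For *TEAD4* they were *RAB11FIP5*, *KNDC1* and *FLYWCH1* (differences 0.019, 0.033 and 0.033), and for *TEAD2* they were *GATA5*, *ADGRB2* and *VAMP1* (0.11, 0.13 and 0.13). With 2 groups of 3 libraries, any gene with a like fold change and a small spread comes out as similar.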

How the data were processed

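RNA of 3 sgCtrl and 3 sg*NF2*-1 libraries of H2452 cells was sequenced by the authors (paired ends, NovaSeq). The submitters' processing notes name HISAT2, StringTie 1.3.3b, featureCounts 1.5.0-p3 and build hg38, without roles, and whether counting used strand is not given in the sources used here. The files hold the unnormalized counts the authors deposited for each gene, and their deposited FPKM, which equals the count divided by gene length and by a depth of 1.03 to 1.08 times the library total (within 0.1% for every gene with at least 50 counts). The 9 genes and all lists were chosen with earlier results of these data known.

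Groups and replicate numbers came from the sample titles. Counts were filtered (edgeR 4.0.16 filterByExpr, minimum count 10, minimum total 15), normalized by TMM and fitted with edgeR's quasi-likelihood test of the group in R 4.3.3, with Benjamini-Hochberg adjustment. DESeq2 1.42.0 was an alternative, with other scalings, filters, a replicate block, the study's call rule and leaving out each library. Standard errors were derived from the F statistic. Exact permutation tests (two-sided) used scipy 1.17.1. FPKM levels were described without a test. The procedures were tested on simulated counts. Lists were described by counts and medians. The genes named from a list are at most 3 in each direction, those with the largest called change, and for marker lists also the highest and lowest in FPKM; also named are the 3 nearest profiles of each called gene and overlapping genes with at least 10 counts. *CALB2*, *LRRN4*, *KRT5*, *KRT18*, *UPK3B*, *LATS2*, *AMOTL2*, *PTPN14*, *CD37* and *WWTR1-AS1* were added after their values were seen. Some genes of the lists are counted but not reported by name here.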

Additional observations from a re-analysis of the deposited data

How the results depend on the processing

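The direction of all 8 tested genes and of *NF2* was kept in all 12 alternatives. With the study's call rule (edgeR, unadjusted p under 0.05 and log2 fold change beyond 0.5), 2839 of all tested genes were called in place of 4866. By that rule 0 of the 9 genes were higher (1 at an unadjusted p under 0.05 without the fold limit, and 0 by the same rule with DESeq2), as were 3 upstream components, 1 retention and turnover gene, 2 partner factors and 1 coactivator or corepressor, and 1 partner factor, 0 coactivators or corepressors (3 at an unadjusted p under 0.05 without the fold limit, and 0 by the same rule with DESeq2) and 1 target gene were lower. By that rule DESeq2 gave 1 partner factor higher and 3 lower, and leaving out a library gave 1 to 3 lower (3 without sgCtrl replicate 1 or 3 and without sg*NF2*-1 replicate 1 or 2). In the main comparison *FOS* and *EGR1* lay at the fold limit (both -0.50). The target genes higher by that rule numbered 7. The retention and turnover gene was lost by that rule without sgCtrl replicate 2 or 3 and without sg*NF2*-1 replicate 3. The call of *TEAD1* was gained with library totals (log2 fold change -0.23) and with the replicate block (-0.21, adjusted p = 0.032, edgeR), and 5 target genes were lower under each. Same-numbered libraries did not deviate together (correlations of -0.03, 0.06 and 0.05, and not every library correlated best with its own number), so the numbers were not taken as pairs, and the replicate block raised the calls over all genes to 5199. Leaving out each library in turn gave 1 to 2 of the 9 genes lower, 2 to 4 coactivators or corepressors higher and 0 to 2 lower (0 without sgCtrl replicate 2 and without sg*NF2*-1 replicate 3, where 2 and 3 were lower at an unadjusted p under 0.05; 1 without sgCtrl replicate 3; 2 higher without sg*NF2*-1 replicate 2) and log2 fold changes of -1.42 to -0.76 for *TEAD2*, whose call was lost without sg*NF2*-1 replicate 2. *TEAD2* had 15 to 59 counts per library, the lowest of the 8 tested genes, and *VGLL1* had 0. Scaling by TMM moved 8 mean FPKM levels by more than 1 SD.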

Other observations

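The chromosomal surroundings of the 8 tested genes were also read, by the 10 tested genes nearest each on its chromosome. Over all tested genes 17.7% were called higher and 16.6% lower. Around *WWTR1* these had a median log2 fold change of -0.15, from -1.0 to 0.58, with 4 called lower and 1 higher (edgeR's quasi-likelihood test, adjusted p under 0.05). Around *TEAD2* the median was 0.02 with 3 higher and 0 lower, and around *TEAD4* it was -0.03 with 1 higher and 1 lower. Around *TEAD3*, which was not called, the median was 0.31 and 6 of the 10 were higher. Around *VGLL4*, also not called, the median was 0.34 with 4 higher and 0 lower. For *YAP1*, *TEAD1* and *VGLL3* the medians were -0.24, -0.07 and -0.04.

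Among the higher mesothelial and mesothelioma markers, *KRT7*, a simple keratin, rose from 235.7 to 542.9 CPM (log2 fold change 1.2), and *THBD* (thrombomodulin) rose by 0.60. Among the lower, *PDPN* (podoplanin) fell from 67.9 to 28.1 CPM. Of the 2 tested markers of other cells, *PECAM1*, an endothelial adhesion gene, was lower in sg*NF2*-1 (log2 fold change -2.28, from 6.31 to 1.3 CPM); its part in the results on the YAP, TAZ, TEAD and VGLL genes was not tested.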
